A study of Mus musculus with 48 samples.

Results

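Engulfment of synaptic material by astrocytes depends on a small set of secreted ligands, membrane receptors, integrin subunits and adaptors, and 8 of these genes are described here: the bridging ligands Gas6 and Mfge8, the receptors Megf10, Mertk and Axl, the integrin subunits Itgav and Itgb5, and the adaptor Gulp1. They were matched by symbol to Ensembl identifiers, and all 8 were found among the 47643 genes listed in every count file. Only some of them are receptors, so they are called the engulfment genes below. The RNA came from ribosomes of astrocytes in the dorsal hippocampus of mice of the strain Tg(Aldh1l1-eGFP/Rpl10a) JD130Htz, in which the ribosomal protein L10a is joined to a green fluorescent protein under regulatory sequence of the astrocyte gene Aldh1l1. An antibody to the fluorescent protein captured the tagged ribosomes with their bound RNA, a method called translating ribosome affinity purification (TRAP). One group was the whole astrocyte (Astro) and the other its perisynaptic processes (PAP), thin branches that touch synapses, and both came from the same 3 animals (C1, C2 and C3, here animals 1, 2 and 3). All animals carried the transgene and none was labelled as treated, and the labels gave neither age nor sex.

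In the engulfment of dying cells and of synapses, phosphatidylserine that has moved to the outer face of a membrane acts as an eat-me signal. Gas6 binds phosphatidylserine and activates the receptor tyrosine kinases Axl and Mertk, while Mfge8 binds it through its discoidin domains and is held by integrins built from an alpha V subunit (Itgav) and a beta subunit such as beta 5 (Itgb5). Megf10 is a scavenger-type receptor with repeated EGF-like domains, works with the adaptor Gulp1, and, together with Mertk, is known for the removal of synapses by astrocytes during development and in the adult hippocampus.

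The integrin pathway turns on an arginine-glycine-aspartate motif (RGD) that alpha V integrins bind. It is shown for Mfge8 and for Edil3 and Vtn from the list of other bridging proteins, and the other genes of the lists were not searched for it. The coding sequence around the motif was read from the GRCm38 genome with GENCODE M21 transcripts and is shown because it is the part of the ligand that meets the integrin. Each run holds 15 codons on the coding strand, 5′ to 3′, with the 3 codons of the motif in capitals, and each of these proteins held the motif 1 time.
Mfge8, chr7:79145290-79145334, minus strand, exon 3 of 10: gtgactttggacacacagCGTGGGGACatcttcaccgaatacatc
Edil3, chr13:89042473-89042517, plus strand, exon 4 of 11: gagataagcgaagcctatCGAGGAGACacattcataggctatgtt
Vtn, chr11:78499610-78499732, plus strand, across exons 2 and 3 of 8: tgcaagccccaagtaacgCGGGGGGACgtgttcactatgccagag
The motif began at codon 87 of 463 in Mfge8, at codon 96 of 480 in Edil3 and at codon 64 of 478 in Vtn. The arginine codon differed between all 3, while Mfge8 and Vtn shared the glycine codon and all 3 shared the aspartate codon.

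Each animal and compartment had been deposited as 8 technical replicates, which were summed, so that n = 3 pooled libraries per group. The Astro libraries held 18707844 to 20293538 counts and the PAP libraries 1829962 to 2980984, so that Astro was 10.64 times deeper by the medians. Levels are given as CPM, the share of a library's counts scaled with edgeR's TMM factors, and a floor of 3 counts in a library came to between 0.991 and 1.55 CPM in PAP. All 10 astrocyte markers on the list were above the floor in every library, and their summed level was 22305 to 30234 CPM in Astro and 3465, 7528 and 12223 CPM in PAP of animals 1, 2 and 3. RNA of many cells was measured at once, so fewer cells of a type and less RNA per cell cannot be told apart.

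In whole astrocytes all 8 genes were detected in every technical replicate of every animal. To compare genes, CPM was divided by the summed length of a gene's exons in kilobases (RPKM). The ligands were the most abundant by that measure, with Mfge8 at 124 ± 46.1 RPKM and Gas6 at 95.2 ± 58.1 RPKM (SD, n = 3). Itgb5 followed at 38.7 ± 12.02 RPKM, Axl at 30.3 ± 10.4 RPKM, Mertk at 20.0 ± 3.39 RPKM and Gulp1 at 12.5 ± 2.26 RPKM. Megf10, at 4.05 ± 2.49 RPKM, and Itgav, at 2.53 ± 1.61 RPKM, were the lowest. With the length of the longest transcript in place of all exons, Mfge8 came to 249 RPKM and Itgav to 3.86 RPKM, in the same order of genes. Among the tested genes Mfge8 stood at percentile 96.5 of mean Astro RPKM and Itgav at percentile 34.1, so that by the means the alpha V subunit was the lowest of the 8 and its ligand Mfge8 the highest.

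Neighbours in this order did not always separate. The libraries of Mfge8 and Gas6 overlapped in RPKM, as did those of Itgb5 and Axl, of Axl and Mertk, and of Megf10 and Itgav. Gas6, lowest at 55.4 RPKM, lay above Itgb5, highest at 51.8 RPKM. Mertk, lowest at 16.5 RPKM, lay above Gulp1, highest at 14.8 RPKM, and Gulp1, lowest at 10.2 RPKM, lay above Megf10, highest at 6.40 RPKM. Mertk (86.5 ± 14.7 CPM) and Gulp1 (47.2 ± 8.504 CPM) had the smallest SD for their mean in Astro, while that of Gas6, Megf10 and Itgav was 61.0% to 63.6% of the mean. In 7 of the 8 genes the lowest Astro level was that of animal 3, and Gulp1, lowest in animal 2, was the exception.

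**Figure D1:**
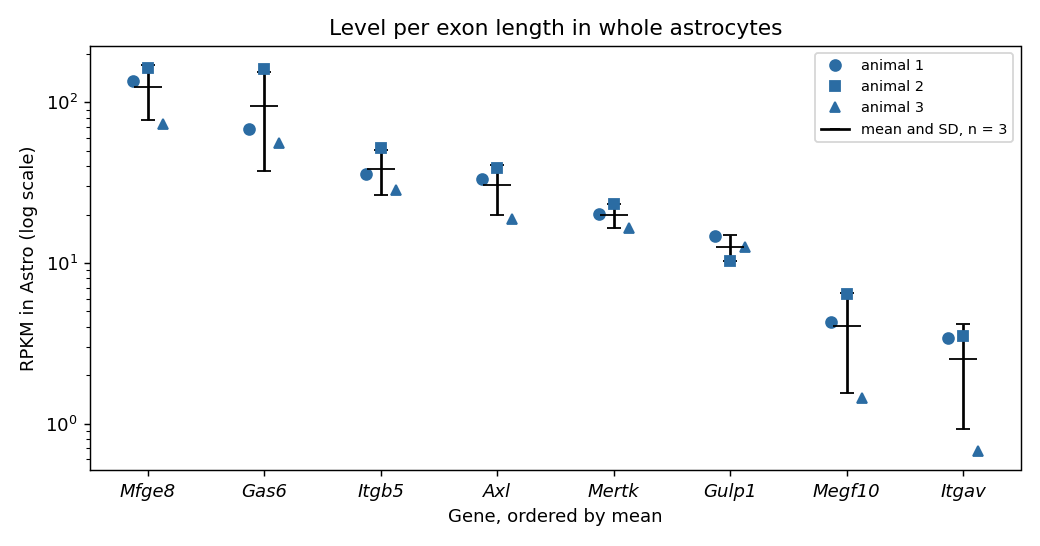
Level of each engulfment gene in whole astrocytes, in RPKM on a log axis, with a point per animal and the mean and SD of n = 3. The ligands Mfge8 and Gas6 stand highest, and Megf10 and Itgav lowest with animal 3 below the other animals.

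The comparison of the compartments asked which of these genes were found on the ribosomes of the processes at synapses. Of the 8 genes, Megf10, Mertk and Gulp1 fell in PAP, Itgav was nearly undetected there but did not pass the test, and Mfge8, Gas6, Axl and Itgb5 were detected in PAP at levels that differed widely between animals. Differences were tested with edgeR's quasi-likelihood test over 14618 genes, with Benjamini-Hochberg adjustment over all of them and a threshold of 0.05. That test called 3 of the 8 genes lower and none higher, against 15.4% of all tested genes called lower and 21.3% called in either direction. At an unadjusted p under 0.05 the number was 4, against 30.9% of all tested genes. DESeq2 and limma voom each called 4 lower and 0 higher, against 24.2% and 19.9% of all genes called lower by these tools. With the animal as a block edgeR called 0.91% of all genes in either direction, only 0.0342% lower, and 0 of the 8, of which 4 had an unadjusted p under 0.05, against 23.3% of all genes. Without the Astro library of animal 1, 2 or 3 it called 0 of the 8 each time, where 0.889%, 0.993% and 1.09% of all genes were called and 0.00773%, 0.0388% and 0.0389% were called lower. Under these settings next to no gene of the whole table was called lower, so 0 of 8 is near the share of all genes.

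**Figure D2:**
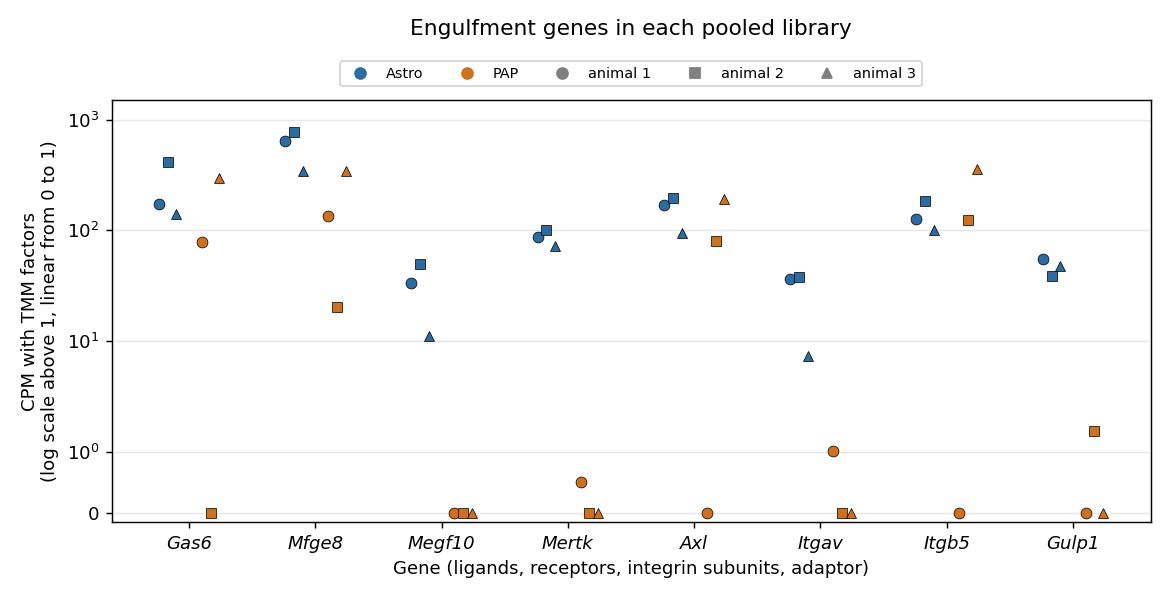
CPM of the 8 engulfment genes in each pooled library (log axis above 1, linear from 0 to 1), blue for Astro and orange for PAP, with a symbol per animal. Megf10, Mertk, Itgav and Gulp1 lie near 0 in all 3 PAP libraries, while Gas6, Axl and Itgb5 are at 0 in a single PAP library and high in another.

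Among the ligands, Gas6 (ENSMUSG00000031451, chr8:13465374-13494490, minus strand) was at 174, 413 and 141 CPM in Astro of animals 1, 2 and 3 and at 79.1, 0 and 299 CPM in PAP. Animal 3 was higher in PAP than in Astro, animal 1 was lower, and in animal 2 no read was counted in PAP. The means were 243 ± 148 CPM in Astro and 126 ± 155 CPM in PAP, the groups overlapped, and the log2 difference of -0.94 ± 1.60 (SE) had an edgeR adjusted p of 0.774. It was -2.68 without the PAP library of animal 3, -0.42 without that of animal 2, -0.29 without the Astro library of animal 2, -1.80 with the animal as a block and -3.55 with limma voom. In the PAP libraries of animals 1 and 3, Gas6 was found in 8 of 8 technical replicates, with 14 to 26 and 84 to 131 counts each, and in animal 2 in 0 of 8. Gas6 shares 34 bases of exon with Tmem255b on the opposite strand, and the strand setting of the counting is not given in the sources used here.

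Mfge8 (ENSMUSG00000030605, chr7:79133768-79149060, minus strand), the integrin ligand whose RGD codons are shown above, was at 634, 765 and 342.4 CPM in Astro and at 135, 20.1 and 339.7 CPM in PAP. No other of the 8 genes was above the floor in all 3 PAP libraries. PAP of animal 3 held 99.2% of the Astro level of that animal, whereas PAP of animals 1 and 2 was at 21.3% and 2.63% of theirs. The means were 581 ± 216 CPM and 165 ± 162 CPM, and the groups did not overlap, by the small margin between the libraries of animal 3. The log2 difference was -1.81 ± 0.92 (SE, n = 3 per group), with an edgeR adjusted p of 0.252, and did not pass the test. It was -2.97 without the PAP library of animal 3.

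Of the receptors, Megf10 (ENSMUSG00000024593, chr18:57133090-57297467, plus strand) was at 33.1, 49.4 and 11.2 CPM in Astro and was not counted in any of the 24 PAP technical replicates. The Astro libraries all lay above the PAP libraries. Against the mean floor of 3 counts per PAP library, 1.36 CPM, Megf10 was at least 23.0-fold lower in PAP. The edgeR adjusted p was 0.0231, and 0.206 with the animal as a block. Over 17 alternative settings it ran from 5.33e-07 to 0.206, and it was 0.126, 0.104 and 0.0957 without the Astro library of animal 1, 2 or 3.

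Mertk (ENSMUSG00000014361, chr2:128698956-128802894, plus strand), the receptor kinase activated by Gas6, was at 87.2, 101 and 71.5 CPM in Astro and at 0.51, 0 and 0 CPM in PAP, where a single read was counted in all. Every Astro library was far above every PAP library. Over the 3 libraries of each group pooled, the ratio of Astro to PAP was 594, with an exact 95% interval from 107 to 23486 that covers counting error only. The edgeR adjusted p was 0.0196, and 0.126 with the animal as a block. Over the alternatives it ran from 4.14e-11 to 0.126, and it was 0.0818, 0.0864 and 0.0672 without the Astro library of animal 1, 2 or 3.

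Axl (ENSMUSG00000002602, chr7:25757273-25788705, minus strand), the other Gas6 receptor, was at 168, 195 and 94.5 CPM in Astro and at 0, 80.4 and 191 CPM in PAP. PAP of animal 3 held 202% of the Astro level of the same animal, PAP of animal 2 held 41.1%, and PAP of animal 1 had no read. The groups overlapped, with means of 153 ± 52.2 CPM and 90.4 ± 95.7 CPM, and the log2 difference of -0.75 ± 1.53 (SE) had an edgeR adjusted p of 0.814. It was -1.99 without the PAP library of animal 3, -0.21 without that of animal 1, -0.50 without the Astro library of animal 2, -1.88 with the animal as a block and -3.24 with limma voom. Axl was counted in 8 of 8 technical replicates of PAP in animals 2 and 3, with 11 to 27 and 56 to 90 counts each. The third kinase of the family, Tyro3, was chosen after its values were seen: it was at 14.1, 18.1 and 10.2 CPM in Astro and at 0, 0 and 1.65 CPM in PAP, with an edgeR adjusted p of 0.0914.

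Of the integrin subunits, Itgav (ENSMUSG00000027087, chr2:83724397-83806916, plus strand), which encodes alpha V, was at 36.6, 37.9 and 7.26 CPM in Astro and at 1.02, 0 and 0 CPM in PAP, which is 2 reads in all. The groups did not overlap, and the pooled ratio of Astro to PAP was 91.9, with a counting interval from 25.4 to 760. With an edgeR adjusted p of 0.0510 it missed the threshold, which it passed in 5 of 17 alternatives, among them that without the PAP library of animal 1 (0.0311), over a range from 9.68e-05 to 0.206. Itgav shares 634 bases of exon with Gm13684 on the opposite strand.

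Itgb5 (ENSMUSG00000022817, chr16:33829665-33949338, plus strand), a beta subunit that pairs with alpha V, was at 127, 184 and 101 CPM in Astro and at 0, 123 and 358 CPM in PAP. The highest of its 6 libraries was PAP of animal 3, at 356% of the Astro level of that animal, and the lowest was PAP of animal 1, where none of 8 technical replicates had a read. The means were 137 ± 42.7 CPM and 160 ± 182 CPM, and the log2 difference of 0.22 ± 1.58 (SE) had an edgeR adjusted p of 0.952. Its direction was not stable: the difference was -1.15 with the animal as a block and -1.22 without the PAP library of animal 3. So, in PAP of animals 2 and 3, the beta 5 transcript was counted 239 and 1083 times while its alpha partner was not counted.

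Other beta subunits that pair with alpha V were on the receptor list. Itgb8 had the highest mean Astro CPM of that list, at 119, 92.8 and 110 CPM, against 0, 1.03 and 8.26 CPM in PAP, with no overlap and an edgeR adjusted p of 0.0547. Itgb1 and Itgb3 were chosen after their values were seen. Itgb1 was at 36.9, 67.0 and 29.5 CPM in Astro and at 0.51, 181 and 112 CPM in PAP (adjusted p = 0.685, edgeR), near 0 in PAP of animal 1 as Itgb5 was. Itgb3 had no read in Astro.

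Gulp1 (ENSMUSG00000056870, chr1:44551511-44796838, plus strand), the adaptor that binds the cytoplasmic tail of engulfment receptors, was at 55.5, 38.5 and 47.5 CPM in Astro and at 0, 1.55 and 0 CPM in PAP, which is 3 reads in all. The Astro libraries lay close together and far above the PAP libraries. The pooled ratio of Astro to PAP was 109, with a counting interval from 37.4 to 531. The edgeR adjusted p was 0.0375, and 0.206 with the animal as a block, over a range in the alternatives from 1.64e-07 to 0.206. It was 0.176, 0.155 and 0.159 without the Astro library of animal 1, 2 or 3, 0.0506 with no filter on low counts and 0.0622 when only genes with a mean of 100 counts were tested.

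The lower depth of PAP was set beside these near-absences by scaling. The mean share of reads in Astro would give 52.9, 52.9 and 86.1 reads of Megf10 in PAP of animals 1, 2 and 3, where none was counted. For Mertk it would give 149, 149 and 243 reads, against 1, 0 and 0 counted. For Gulp1 it would give 81.7, 81.8 and 133 reads, against 0, 3 and 0, and for Itgav 46.0, 46.1 and 74.9 reads, against 2, 0 and 0. When the Astro libraries were thinned to 1829962 counts, the smallest PAP total, Megf10 kept 62, 87 and 19 counts and Itgav 60, 60 and 14, so every engulfment gene stayed above 3 counts in every thinned Astro library. Reads of an amplified library are not independent molecules, so such scaling covers counting error only.

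For Axl, Gas6 and Itgb5, the same scaling showed libraries with no read next to libraries above the Astro share. Axl would have 261, 261 and 425 reads and had 0, 156 and 577. Gas6 would have 414, 414 and 674 reads and had 155, 0 and 905. Itgb5 would have 235, 236 and 384 reads and had 0, 239 and 1083. Mfge8 would have 991, 993 and 1614 reads and had 265, 39 and 1028, fewer in each animal.

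**Figure D3:**
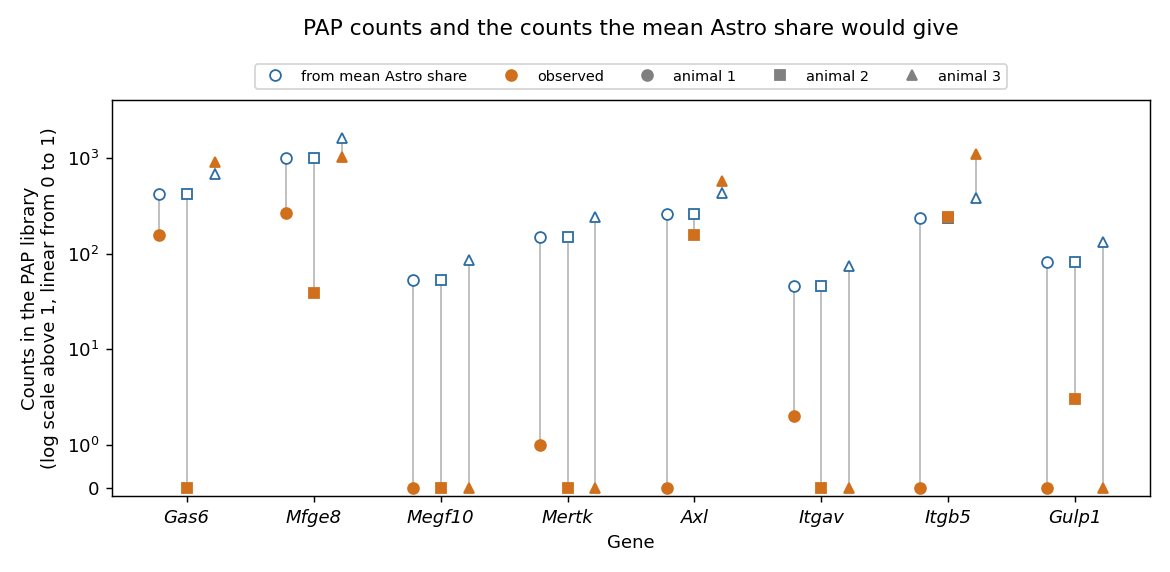
Reads of each engulfment gene counted in the 3 PAP libraries (filled) beside the number its mean Astro share would give at that library's total (open), with a symbol per animal and a log axis above 1. Megf10, Mertk, Itgav and Gulp1 have 3 reads or fewer where 46.0 to 243 would be given, and Itgb5 in animal 3 has 1083 against 384.

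These patterns were then set beside all tested genes. The groups did not overlap in CPM for 5 of the 8 genes, against 46.0% of all tested genes. For Megf10, Mertk, Gulp1 and Itgav, 4 of the 8, no PAP library held more than 3 counts, against 16.5% of all tested genes. Axl, Gas6 and Itgb5, 3 of the 8, combined a PAP library at 3 counts or fewer with another at 100 or more, which was true of 16.4% of all tested genes. In the Astro libraries, which are deeper, the same split was found for 0.116% of the tested genes and for 0 of the 8. All 8 passed the filter on low counts, 4 of them through their Astro libraries alone, so their counts are given as a description. The median log2 difference of the 8 was -4.09, or -3.07 with genes at the floor set to their bound, and that of all tested genes was -0.53, or -0.46. The 10 astrocyte markers were lower too, with a median of -1.58, and their groups did not overlap in 10 of 10. A lower level in PAP was thus not particular to the engulfment genes.

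PAP libraries also differed from each other in the summed levels of the engulfment genes and of the markers. Single genes did not share 1 order: Gas6 and Mfge8 were lowest in PAP of animal 2, Axl and Itgb5 in that of animal 1. The summed level of the 8 genes in PAP was 216, 225 and 1187 CPM in animals 1, 2 and 3, and that of the astrocyte markers was lowest in animal 1 and highest in animal 3 too. Among markers of other cells, the 5 fibroblast genes summed to 1.53, 3.61 and 126 CPM in PAP of animals 1, 2 and 3, against 7.46 to 34.0 CPM in Astro. In PAP of animal 3 that sum was mostly Col1a2 (78.6 CPM) and Dcn (46.9 CPM), while Col1a1 and Lum were at 0 and Col3a1 at 0.33 CPM. Lum, at 1.02 to 4.67 CPM in Astro, had no read in any PAP library. Among the PAP libraries, Gas6, Axl, Mfge8 and Itgb5 were highest in that of animal 3. The 10 microglial genes summed to 162, 188 and 26.1 CPM in PAP, mostly Ctss in animals 1 and 2, with Cx3cr1, P2ry12, Tmem119, Aif1 and Fcrls at 0 in all 3 PAP libraries, and to 43.9 to 89.3 CPM in Astro. In animal 3 the PAP sum was mostly Tyrobp, at 0, 0.52 and 18.5 CPM in PAP of animals 1, 2 and 3 and 1.07 to 2.08 CPM in Astro. Of the pathway lists, genes that microglia are known for were chosen after their values were seen. Trem2 (37.3 CPM), C1qa (16.5 CPM) and C1qc (19.8 CPM) were highest in PAP of animal 3, with at most 1.55 CPM in the other PAP libraries, whereas C1qb was at 26.0, 29.9 and 0 CPM. Itgam had no read in any PAP library, and Itgb2 was at 0, 1.03 and 0 CPM. The 6 macrophage genes stayed at or below 0.661 CPM in PAP. The part of these cells in the levels of the engulfment genes was not tested.

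Other lists of markers were also summed. The 8 mural genes reached 61.9 to 72.1 CPM in Astro and 1.55 to 26.1 CPM in PAP, and the 10 endothelial genes 6.14 to 14.1 CPM and 15.5 to 24.5 CPM. The endothelial sum in PAP was mostly Ly6c1 (23.0, 3.09 and 12.9 CPM) and, in animal 2, Tek (11.3 CPM), with Cldn5, Cdh5, Slco1a4 and Emcn at 0 in all 3 PAP libraries. The 10 neuronal genes reached 1016 to 1629 CPM in Astro and 482 to 1291 CPM in PAP, and the 10 oligodendrocyte genes 831 to 914 CPM and 612 to 1063 CPM. The 6 genes of oligodendrocyte precursors reached 9.62 to 35.0 CPM in Astro and 2.04, 41.8 and 101 CPM in PAP of animals 1, 2 and 3, an order shared with the summed engulfment genes. In PAP that sum was mostly Pdgfra in animal 2 and Gpr17 in animal 3, with C1ql1 and Vcan at 0 in all 3 libraries. The 8 B-lineage genes stood apart, with 42.2 to 65.2 CPM in Astro and 5909, 3640 and 2805 CPM in PAP of animals 1, 2 and 3, an order opposite to that of the summed engulfment genes, and the part of these lists in the result was not tested.

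The rest of the pathway was described through 67 other genes, of which 53 were tested. Of these, 12 fell and 1 rose in PAP. That is 22.6% lower and 24.5% in either direction, against 15.4% and 21.3% of all tested genes, with a median log2 difference of -0.94 against -0.53 for all tested genes. With the animal as a block edgeR called 0 of the 53, of which 17 had an unadjusted p under 0.05, and the adjusted p of those 13 genes was then 0.107 to 0.206. DESeq2 called 19 lower and 1 higher, and limma voom called 14 lower and 0 higher, where 24.2% and 19.9% of all genes were lower. Without any 1 of the Astro libraries, of animal 1, 2 or 3, edgeR called no pathway gene, with shares of all genes as low as those given above. Without the PAP library of animal 3 it called 23 pathway genes, where 20.2% of all genes were called lower and 27.8% in either direction. Of the 12 genes that fell, 6 exceeded 3 counts in no PAP library and so were tested through their Astro libraries alone.

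Of the 18 other receptors, 9 were tested, and edgeR called none of these at the adjusted threshold. At an unadjusted p under 0.05 there were 4, and DESeq2 and limma voom each called 3, all lower, where the shares of all genes were 30.9%, 24.2% and 19.9%. Lrp1, a large endocytic receptor, was at 47.6 ± 15.4 CPM in Astro and at 55.4 ± 24.9 CPM in PAP (adjusted p = 0.873, edgeR).

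Of the 13 other bridging proteins, 9 were tested and 2 fell, against 15.4% of all tested genes, both tested through their Astro counts alone. Pros1, the second ligand of the kinase receptors beside Gas6, was at 38.5, 36.9 and 17.3 CPM in Astro and had 1 read in PAP, a pooled ratio of 211 with a counting interval from 37.8 to 8338 (adjusted p = 0.0213, edgeR). Lgals3, a galectin, was at least 4.08-fold lower, with no read in PAP (adjusted p = 0.0208, edgeR). Neither C4b, a complement component, nor Calr, a chaperone that can act as an eat-me signal, passed the test: C4b had 84.0 ± 59.2 CPM in Astro and 68.9 ± 60.1 CPM in PAP, and Calr had 166 ± 87.4 CPM and 185 ± 42.9 CPM. The RGD proteins Vtn and Edil3, shown with Mfge8 for their motif, were low in Astro, at 1.57 to 5.63 CPM and 4.23 to 11.0 CPM, and each was above the floor in a single PAP library, Vtn at 28.1 CPM in animal 3 and Edil3 at 32.7 CPM in animal 1.

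All 15 genes of the engulfment machinery, which couples receptors to the actin skeleton, were tested, and 2 fell, which at 13.3% is below the 15.4% of all tested genes. Rac1, the small GTPase that drives the phagocytic cup, was at 976 ± 80.9 CPM in Astro and 337 ± 84.8 CPM in PAP, a log2 difference of -1.53 ± 0.27 (adjusted p = 0.0208, edgeR). Cdc42, a related GTPase, was at 806 ± 158 CPM and 311 ± 83.4 CPM, a log2 difference of -1.37 ± 0.30 (adjusted p = 0.0232, edgeR). Unlike Megf10, Mertk and Gulp1, which were at or under the floor, both GTPases were counted in every PAP library.

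Of the 10 genes that set membrane signals such as phosphatidylserine exposure, 9 were tested and 3 fell, against 15.4% of all tested genes. All 3 had no read in PAP and passed the filter on low counts through Astro alone, so that nothing is read from their share. Xkr8, a scramblase, was at least 1.65-fold lower, Plscr1, named as a scramblase, at least 5.37-fold lower, and Atp11a, a flippase that returns phosphatidylserine to the inner leaflet, at least 14.3-fold lower. Their edgeR adjusted p was 0.0208 each. Tmem30a, the flippase partner subunit, was at 218 ± 61.1 CPM in Astro and 309 ± 192 CPM in PAP, and Sirpa, the receptor of the don't-eat-me signal CD47, was at 242 ± 59.7 CPM and 129 ± 142 CPM, and neither passed the test.

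All 11 genes of phagosome maturation were tested, and 5 fell and 1 rose, which is 45.5% lower and 54.5% in either direction against 15.4% and 21.3% of all tested genes. The 10 astrocyte markers had a like count, with 5 lower and a median log2 difference of -1.58 beside -1.62 for the phagosome genes. limma voom called 2 of the 11 lower and 0 higher, where it called 19.9% of all genes lower, and DESeq2 called 6 lower and 1 higher. Rab5a, of early endosomes, went from 389 ± 47.0 to 64.5 ± 49.4 CPM (adjusted p = 0.0429, edgeR), and Rab7, of late endosomes, from 639 ± 63.1 to 208 ± 90.6 CPM (0.0341). Map1lc3b, which coats phagosomes and autophagosomes, went from 1113 ± 96.0 to 257 ± 114 CPM (0.0208), and Lamp2, of the lysosomal membrane, from 241 ± 104 to 46.6 ± 11.7 CPM (0.0208). Rubcn, which is needed for LC3-associated phagocytosis, had a pooled ratio of Astro to PAP of 79.3 with a counting interval from 27.1 to 385 (0.0222). Becn1, of the lipid kinase complex of autophagy, rose from 160 ± 35.7 to 388 ± 118 CPM (0.0449). Lamp1 had 965 ± 340 CPM in Astro and 333 ± 153 CPM in PAP (0.0604) and did not pass.

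**Figure D4:**
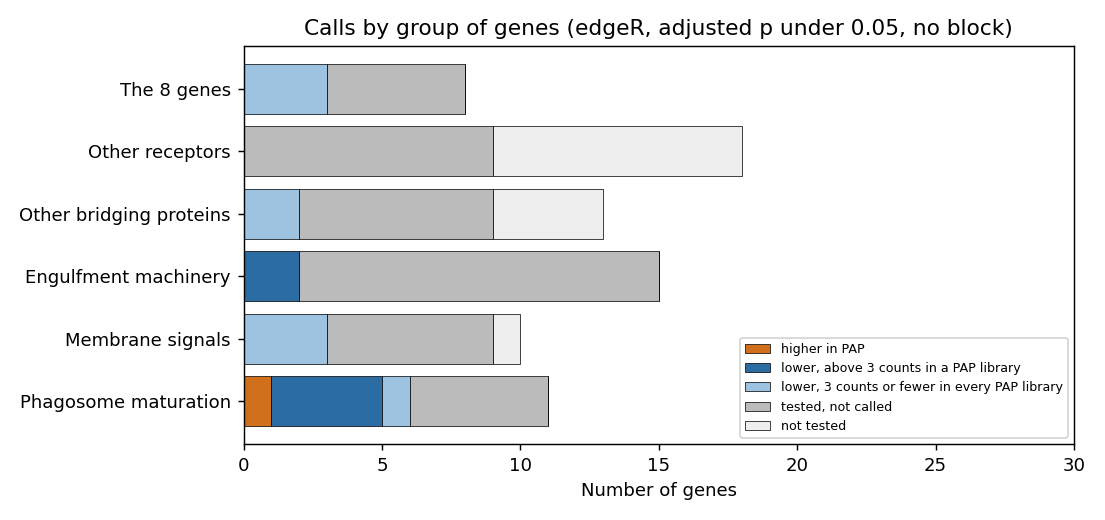
Number of genes in each group by edgeR call at an adjusted p under 0.05 (no block): orange for higher in PAP, dark blue for lower and above 3 counts in a PAP library, light blue for lower with 3 counts or fewer in every PAP library, grey for tested and not called, pale grey for not tested. The 3 calls among the 8 engulfment genes are light blue, and the 2 in the engulfment machinery are dark blue.

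For the 3 engulfment genes with the highest mean Astro RPKM, the genes with the most similar profile over the 6 libraries were found among 7574 genes with a mean of at least 10 CPM in both groups, by the root mean square distance of centred log2 CPM. The libraries share depth, animal and compartment, so these distances are descriptions. Nearest to Mfge8 were Aamdc (0.27), Uspl1 (0.30) and Exoc5 (0.34). Among the 3 nearest to Gas6 were Ptdss1 (0.47) and Ndufaf4 (0.56). Nearest to Itgb5 were Tmem246 (0.42), Enah (0.42) and Apln (0.45). Each of the latter 3 had no read in PAP of animal 1, as Itgb5 did. Ptdss1, an enzyme of phosphatidylserine synthesis, and Ndufaf4 had none in PAP of animal 2, as Gas6 did. In PAP of animal 3 they were at 317.9 and 156 CPM. The genes were picked by likeness over these same libraries, so nothing is read from the shared zeros.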

How the data were processed

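The deposited values are raw counts per gene, with no scaling by the authors: per the file headers each file lists a gene identifier and a count. Per the labels' protocols, lysates were pre-cleaned on columns without and with unspecific antibodies, RNA was amplified with a SMART-Seq kit and libraries were made with Nextera XT. The submitters' processing notes name bcl2fastq 2.18.0.12, Trim Galore 0.4.1, STAR 2.5.2b, SAMtools, HTSeq 0.5.3 and the build mm10. The annotation and strand setting are not given in the sources used here, nor are molecular identifiers. Symbols, exons and coordinates (1-based) came from GENCODE M21 on GRCm38, the assembly called mm10, which held 47224 of 47643 identifiers (99.12%).

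Counts of the 8 technical replicates were summed per animal and compartment, giving 3 Astro and 3 PAP libraries, with 212710 to 2770446 counts per technical replicate. Genes kept by filterByExpr with a minimum count of 10 were tested with edgeR 4.0.16 (R 4.3.3, limma 3.58.1, DESeq2 1.42.0) after TMM scaling, with group as the only term and a threshold of 0.05. The script was also tested on simulated data. At the dispersions of single genes in these libraries it found few of the genes made to differ, so a gene that did not pass may still differ. Animals are separate replicates, so p-values measure the spread between them. The labels give both compartments to the same animal, so the animal was used as a block in an alternative. The correlation of the deviations of the same animal's libraries from their group means was 0.03, 0.02 and -0.03. How reads on exons shared by overlapping genes were assigned was not examined. Intervals are exact binomial ones at 95% and, like the floor of 3 counts, cover counting error only.

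All 8 genes were named. Of the pathway lists, genes past the threshold and the 2 with the highest mean Astro CPM in each list were named, and others only where said. The 3 genes nearest in profile to each of the 3 genes highest in Astro RPKM were also named, except for 1 that is not reported here. The genes and lists were chosen with earlier results of these data known. Alternatives changed the scaling, filter, test, depth, technical replicates, threshold and libraries, and added the replicate block.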

Additional observations from a re-analysis of the deposited data

How the results depend on the processing

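Across all genes, edgeR called 3115 of 14618. It called 133 with the replicate block, 1414 at a mean of at least 100 counts, 1679 with libraries thinned to equal depth and 163 at an adjusted p under 0.01, and DESeq2 called 5141. Leaving out a library in turn gave 115 to 4586. Of the 8 engulfment genes, 3 were called, 0 with the replicate block, 0 at the stricter threshold and 0 to 4 without a library: 0 without any 1 of the Astro libraries, 4 without PAP of animal 1, and 3 without PAP of animal 2 or 3. Without PAP of animal 1, 2 or 3, the calls over all genes were 4157 of 16390, 4037 of 16431 and 4586 of 16523. The shares without an Astro library are given above. Of the other pathway genes, 13 were called, 0 with the replicate block, 7 at a mean of at least 100 counts, 20 by DESeq2, 8 at equal depth, 0 at the stricter threshold and 0 to 23 without a library (0 without any 1 of the Astro libraries). The cause of these changes was not tested. Itgb5 was the only engulfment gene to change direction over the 17 alternatives: its log2 difference was 0.22, but -1.15 with the replicate block, -2.48 with limma voom and -1.22 without PAP of animal 3, the lowest of the values that leave out a library, which reached 0.77. The other 7 genes were lower in PAP in all 17. Megf10 and Mertk passed the threshold in 12 of 17, Gulp1 in 10 and Itgav in 5. The median of all tested genes was -0.53, -0.46 with DESeq2 size factors, -0.37 by library size alone and -1.63 with the block. Order by Astro RPKM was the same with the length of the longest transcript, which put Mfge8 at 249 RPKM, Itgav at 3.86 RPKM and Gulp1 at 15.03 RPKM. For genes with no read in any PAP library, the mean floor of 3 counts, 1.36 CPM, was used as a bound on the level. It is a chosen bound and not a limit of detection: Mertk was counted at 0.51 CPM in PAP of animal 1.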
